A study of Mus musculus with 4 samples.

Results

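The Iroquois genes Irx1, Irx2, Irx3, Irx4, Irx5 and Irx6, the T-box genes Tbx2 and Tbx3, and the genes Shox2 and Nr2f2 encode transcription factors that set up the chambers and the conduction system of the heart. Chromatin accessibility around these 10 genes was read from an ATAC-seq peak table of mouse heart at postnatal day 14, in which a transposase marks open DNA. Every peak that overlapped 1 of the genes or lay within 50 kb of either of its ends was taken. This gave 73 of the 87948 peaks in the table, and no peak belonged to more than 1 of the genes. The 4 libraries came from 2 wild-type heart samples (WT) and 2 Carm1 mutant samples. Carm1 is an arginine methyltransferase that acts on histones and coactivators, and the series is about its part in the maturation of the heart. All 4 libraries share the tissue and the age, and the design text calls the hearts neonatal. The sources used here do not give the Carm1 allele, any driver of its deletion, the strain, or the part of the heart. They also do not say whether each library came from a separate animal, so the p-values measure only the spread between these samples, which may be technical.

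Iroquois factors are homeodomain proteins encoded in paired clusters. Irx4 is a marker of ventricular muscle, Irx3 is needed for fast conduction through the His-Purkinje system, and Irx5 helps set the gradient of repolarization across the ventricular wall. Tbx2 and Tbx3 are repressors that keep the atrioventricular canal and the conduction system from taking on the fate of working muscle. Shox2 maintains the sinus node, and Nr2f2, also called COUP-TFII, sets atrial identity in muscle and venous and lymphatic identity in endothelium.

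The RefSeq promoter table (GRCm38.p6, the assembly of mm10) held an entry for 5 of the 10 genes. The promoters of Irx2, Irx4 and Irx3 are shown because each lay under an open peak of its gene. The 250 bases before the start are given 5′ to 3′ on the gene's strand, with CpG dinucleotides in capitals.

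Irx2 promoter (chr13:72628570-72628819, plus strand): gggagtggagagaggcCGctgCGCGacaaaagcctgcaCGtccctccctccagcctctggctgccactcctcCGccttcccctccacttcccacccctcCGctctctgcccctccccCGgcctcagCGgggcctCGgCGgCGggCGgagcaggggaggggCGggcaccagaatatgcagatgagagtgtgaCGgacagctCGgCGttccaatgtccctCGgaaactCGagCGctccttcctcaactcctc

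Irx4 promoter (chr13:73260247-73260496, plus strand): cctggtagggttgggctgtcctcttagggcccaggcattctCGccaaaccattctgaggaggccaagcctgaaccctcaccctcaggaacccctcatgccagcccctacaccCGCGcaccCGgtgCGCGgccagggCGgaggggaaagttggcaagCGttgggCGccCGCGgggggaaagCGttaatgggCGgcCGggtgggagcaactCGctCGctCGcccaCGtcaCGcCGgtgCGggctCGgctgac

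Irx3 promoter (chr8:91801655-91801904, minus strand): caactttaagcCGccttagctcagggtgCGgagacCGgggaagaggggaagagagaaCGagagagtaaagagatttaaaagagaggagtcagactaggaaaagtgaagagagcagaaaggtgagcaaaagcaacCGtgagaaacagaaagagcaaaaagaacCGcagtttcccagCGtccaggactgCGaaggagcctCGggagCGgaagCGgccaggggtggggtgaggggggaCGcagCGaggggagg

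These stretches held 19, 22 and 13 CpG dinucleotides. Over windows of 300 bases, which include 50 bases past the start, Irx2 had 25, Irx4 had 31 and Irx3 had 14, against a median of 7 over the 32851 promoter windows of the table. The corresponding windows of Shox2 and Nr2f2 held 11 and 2, and neither was overlapped by a peak. Of 4 motifs searched on both strands, the T-box element AGGTGTGA (in 1.3% of all windows), the Iroquois palindrome ACANNTGT (7.4%) and the GATA element AGATAA (11.2%) were in none of the 5 windows. The TATA element TATAAA (13.6%) was in the Shox2 window alone of the 5.

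Of the 73 peaks, 4 were higher and 1 was lower in the mutant heart, and 68 did not pass the test. Over all peaks, 3.05% were higher and 2.45% were lower, so the share called among the members, 6.85%, was near the background. A peak was called where edgeR's quasi-likelihood test gave a Benjamini-Hochberg adjusted p under 0.05 over the whole table. The 5 called peaks lay at Irx5 (3), Irx4 (1) and Irx6 (1), and none lay at Irx1, Irx2, Irx3, Tbx2, Tbx3, Shox2 or Nr2f2. All 5 lay outside the body of their gene, where 50 of the 73 peaks were found. Of the 23 peaks that overlapped a gene body, 0 were called by edgeR, DESeq2 or limma voom. Against the small share called over all peaks, 0 of 23 is not read as a result about gene bodies. Peaks over the bodies of Irx4 and Irx5 were called with other settings, as given below. By edgeR, 3 of the 23 had an unadjusted p under 0.05, all of them higher. Over all peaks, 19186 of 87948 had an unadjusted p under 0.05, and 13 of the 73 members did. The median log2 fold change, mutant over wild type, was 0.20 over the 73 peaks and -0.00069 over all peaks. Both mutant libraries lay above both wild-type libraries at 27 of the 73 peaks and below them at 12, where 25.8% and 25.7% of all peaks did so.

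**Figure D1:**
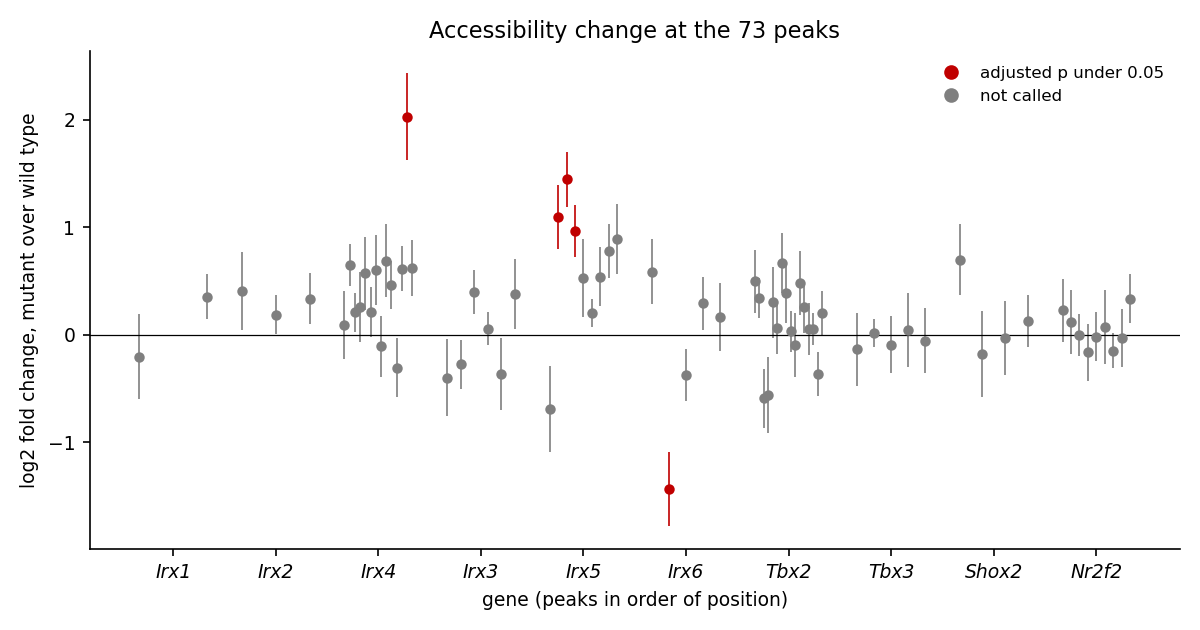
Log2 fold change (mutant over wild type) of each of the 73 peaks, grouped by gene on the horizontal axis and ordered by position within a gene, with bars of 1 standard error. Red points passed the edgeR test, and the 5 of them lie at Irx4, Irx5 and Irx6.

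At Irx5, 3 of the 5 peaks on the lower-coordinate side of the gene rose, and no peak in its body or on the other side passed the test. The gene lies on chromosome 8 from 92357796 to 92361456 (mm10), and 9 peaks lay in its window. The 3 called peaks lay between 2726 and 7202 bp from the gene, inside the annotated span of Crnde, a long noncoding RNA gene that neighbours Irx5 on chromosome 8. Whether they fall in its exons or introns was not determined, since the gene table gives no exons.

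The peak at 92352375 to 92353246, 4550 bp from Irx5, had 4.30 and 3.87 CPM (counts per 1000000, over library totals scaled by TMM) in wild-type replicates 1 and 2 and 12.3 and 9.91 CPM in mutant replicates 1 and 2. The lower mutant library was more open than either wild-type library by a wide margin compared with the spread within a genotype. The log2 fold change was 1.45 ± 0.26 SE (adjusted p 0.0034 by edgeR), and the peak was called whichever library was left out, with log2 fold changes from 1.28 to 1.60.

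The peak at 92353463 to 92355070, 2726 bp from the gene, had 5.54 and 5.63 CPM in the wild type and 10.9 and 10.9 CPM in the mutant. Replicates were nearly equal within each genotype. The log2 fold change was 0.96 ± 0.24 SE (adjusted p 0.0234 by edgeR), and the call was lost when either wild-type library was left out (0.129 for replicate 1 and 0.148 for replicate 2) although the fold change stayed between 0.96 and 0.98.

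The third, at 92350077 to 92350594 and 7202 bp from Irx5, had 2.72 and 5.16 CPM in the wild type and 8.33 and 8.58 CPM in the mutant. The wild-type libraries stood apart from each other here, and both lay below both mutant libraries. The log2 fold change was 1.09 ± 0.29 SE (adjusted p 0.0342 by edgeR). Without wild-type replicate 1 it was 0.71 and not called (0.321), and with the other wild-type library left out it was 1.64, while DESeq2 did not call the peak (adjusted p = 0.0734).

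The strongest Irx5 peak, which spans the lower-coordinate end of the gene (92355542 to 92358512), did not pass the test. It had 77.9 and 70.8 CPM in the wild type and 88.0 and 82.8 CPM in the mutant, a log2 fold change of 0.20 ± 0.13 SE (adjusted p 0.389 by edgeR), and was stronger than 99.1% of all peaks. Peaks within the body and just past its other end had larger fold changes that also did not pass. The peak at 92359824 to 92360910, inside the gene, had 5.71 and 5.52 against 10.7 and 8.58 CPM (log2 fold change 0.78 ± 0.25 SE, adjusted p 0.0694 by edgeR, and 0.0232, a call, without mutant replicate 2), and the peak at 92361711 to 92362265 had 2.32 and 2.37 against 4.44 and 4.29 CPM (0.89 ± 0.32 SE, adjusted p 0.11 by edgeR).

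In 8 of the 9 Irx5 peaks both mutant libraries lay above both wild-type libraries, as they did at 25.8% of all peaks. The remaining peak, 42649 bp away at 92314893 to 92315147, had 2.66 and 1.96 CPM in the wild type and 1.34 and 1.51 CPM in the mutant (log2 fold change -0.69 ± 0.40 SE, adjusted p 0.326 by edgeR). These 8 peaks all lay within 7202 bp of Irx5, so they are neighbours at 1 locus. The median log2 fold change over the 9 peaks was 0.78.

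**Figure D2:**
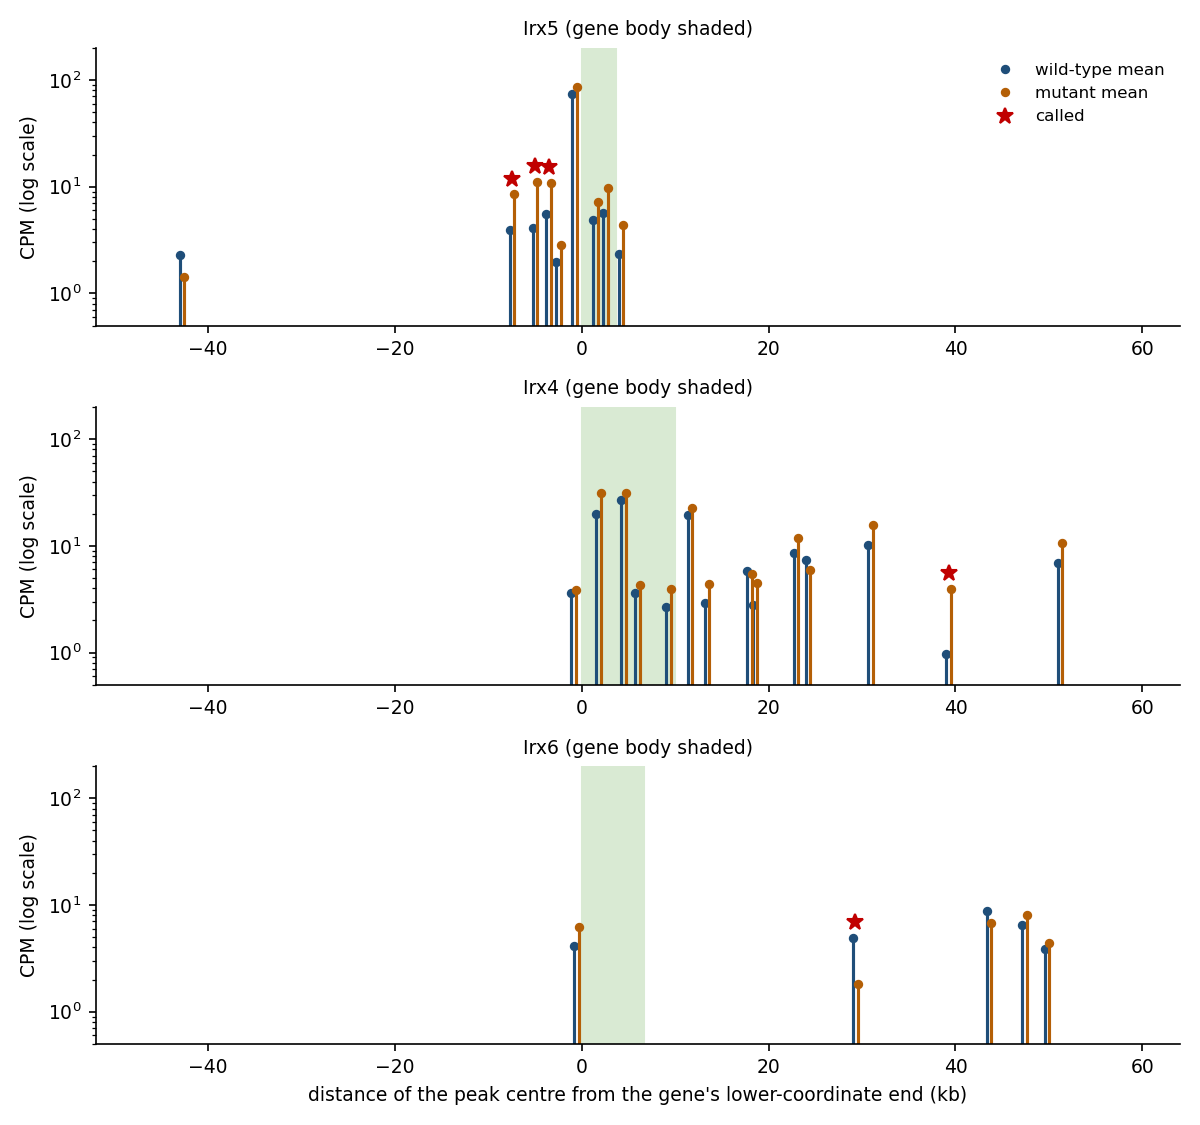
Mean CPM (log scale) of each peak in the wild type (blue) and the mutant (orange) against the distance of the peak's centre from the lower-coordinate end of Irx5, Irx4 and Irx6, with the gene body shaded and called peaks starred. The called Irx5 peaks sit beside the strong peak at the gene's end, while those of Irx4 and Irx6 lie 29017 and 22431 bp beyond the gene.

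Irx6, the gene of the same cluster at the highest coordinates, had the only lower call. The peak at 92703387 to 92703778 on chromosome 8, 22431 bp past the gene, had 5.49 and 4.39 CPM in the wild type and 2.19 and 1.45 CPM in the mutant, a log2 fold change of -1.43 ± 0.35 SE (adjusted p 0.0204 by edgeR). The groups did not overlap. It was not called when either wild-type library was left out (0.143 for replicate 1 and 0.0598 for replicate 2) or with DESeq2 (0.052), with log2 fold changes from -1.76 to -1.17 when a library was left out.

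The peak next to the end of Irx6 went the other way without passing. At 92673507 to 92673950 it had 5.15 and 3.10 CPM in the wild type and 7.12 and 5.24 CPM in the mutant (log2 fold change 0.59 ± 0.31 SE, adjusted p 0.271 by edgeR). The strongest peak of the window, 36440 bp from the gene at 92717396 to 92718369, had 9.34 and 8.10 against 6.27 and 7.19 CPM (log2 fold change -0.37 ± 0.25 SE, adjusted p 0.40 by edgeR).

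Irx3, at the lowest coordinates of that cluster and needed for fast ventricular conduction, had 6 peaks and no call (0 with an unadjusted p under 0.05 by edgeR, and 0 called by DESeq2 or limma voom). Its main peak is the widest of the 73, at 4197 bp, against a median of 533 bp over all peaks and 719 bp over the 73. It covers most of the gene, its start and the promoter printed above (91798982 to 91803178). It had 69.3 and 58.3 CPM in the wild type and 75.1 and 57.8 CPM in the mutant, so replicates of 1 genotype differed by more than the genotype means did. The log2 fold change was 0.06 ± 0.15 SE (adjusted p 0.864 by edgeR), and the 6 peaks ranged from -0.40 to 0.40.

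In the other cluster, on chromosome 13, Irx4 carried the single call and the most peaks (14). The called peak lay at 73298639 to 73299080, 29017 bp past Irx4 and 20796 bp from the nearest end of Ndufs6, a gene of respiratory complex I, which is the closer of the pair. It had 0.96 and 0.98 CPM in the wild type and 4.99 and 2.97 CPM in the mutant. These are 17 and 19 reads against 82 and 47 reads, so the peak was weak in the wild type, and 11.6% of all peaks were weaker over the 4 libraries. The log2 fold change was 2.03 ± 0.40 SE (adjusted p 0.00684 by edgeR), the largest of the 73, and the peak was called whichever library was left out, with values from 1.60 to 2.35.

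The Irx4 start itself fell just short of the threshold. The peak over the promoter printed above (73259976 to 73262833) had 22.2 and 17.3 CPM in the wild type and 36.6 and 25.3 CPM in the mutant, a log2 fold change of 0.65 ± 0.19 SE (adjusted p 0.0511 by edgeR). Both mutant libraries were higher, but they differed from each other by more than the lower of them differed from wild-type replicate 1. The peak passed without mutant replicate 2 (5.24e-05) and with trended offsets (0.0432), and its adjusted p was 0.423 with wild-type replicate 2 left out and to 0.264 with mutant replicate 1 left out.

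The strongest Irx4 peak, within the gene at 73262957 to 73265193, had 28.5 and 25.5 CPM in the wild type and 37.2 and 25.2 CPM in the mutant, so the groups overlapped (log2 fold change 0.21 ± 0.18 SE, adjusted p 0.542 by edgeR). Further from the gene, the peak at 73290013 to 73291039 had 10.2 and 10.01 against 17.1 and 13.9 CPM (0.62 ± 0.21 SE, adjusted p 0.0888 by edgeR). The peak at 73310297 to 73311230, also nearer to Ndufs6, had 8.32 and 5.52 against 12.2 and 9.09 CPM (0.62 ± 0.26 SE, adjusted p 0.163 by edgeR). With mutant replicate 2 left out both peaks were called (0.0257 and 0.0386). In all, 12 of the 14 Irx4 peaks had a log2 fold change above 0, with a median of 0.52. At 8 of the 14 both mutant libraries lay above both wild-type libraries. The 14 are peaks of 1 window read in the same libraries. Their summed counts had a log2 fold change of 0.07 without mutant replicate 1 and 0.59 without mutant replicate 2. Over all peaks, 49.9% had a log2 fold change above 0, and at 25.8% both mutant libraries lay above.

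Irx2 and Irx1, the other genes of that cluster, are expressed in the ventricular septum among other places and had 3 and 2 peaks. By edgeR none of the 5 had an unadjusted p under 0.05, and DESeq2 and limma voom called 0. The Irx2 peak over its promoter (72628058 to 72629589) had 19.5 and 16.8 CPM in the wild type and 21.8 and 19.4 CPM in the mutant, a log2 fold change of 0.19 ± 0.18 SE (adjusted p 0.598 by edgeR). The main Irx1 peak, at the higher-coordinate end of the gene (71961980 to 71964254), had 14.6 and 12.4 against 20.4 and 14.1 CPM (0.36 ± 0.21 SE, adjusted p 0.343 by edgeR). The groups overlapped at both peaks.

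**Figure D3:**
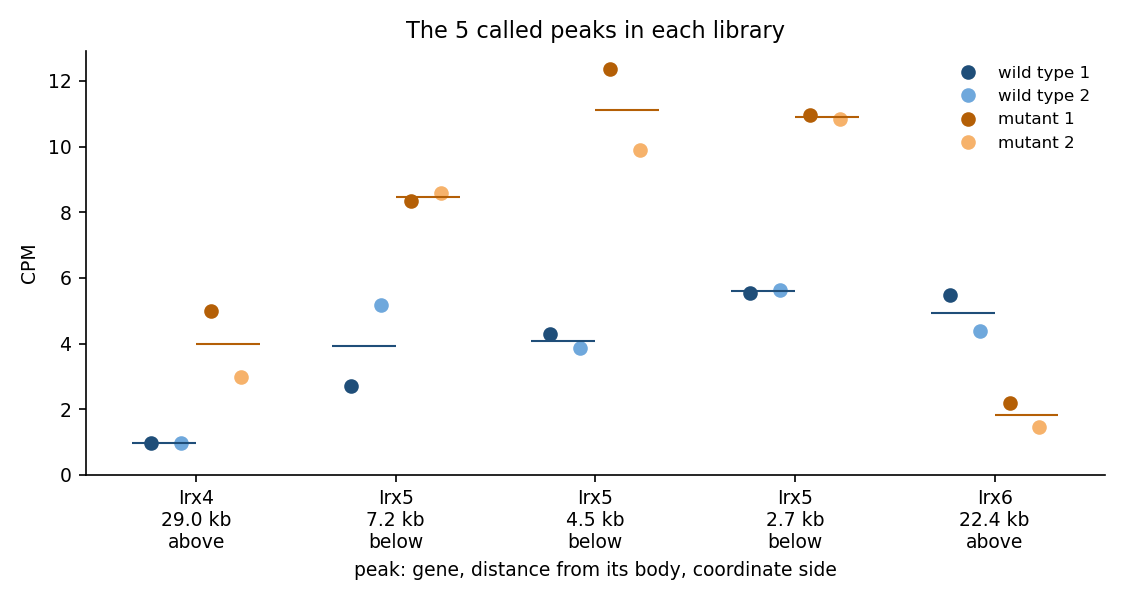
CPM of the 5 called peaks in each library, with lines at the genotype means; labels give the gene, the distance from its body and the coordinate side. The genotypes do not overlap at any of the 5 peaks, and the wild-type libraries differ most at the Irx5 peak 7.2 kb away, with 2.72 and 5.16 CPM.

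**Figure D4:**
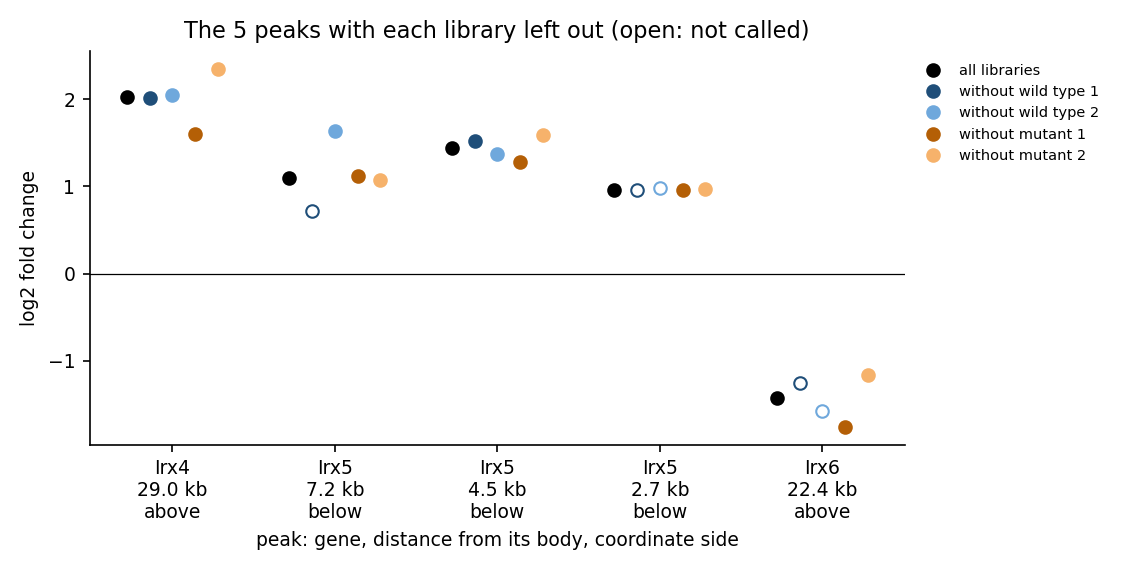
Log2 fold change of the same 5 peaks with all libraries and with each library left out; open circles were not called. Only the Irx4 peak and the Irx5 peak 4550 bp from the gene are filled throughout.

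Tbx2 and Tbx3, the T-box repressors, had no call among 21 peaks. By edgeR, 2 of the 21 had an unadjusted p under 0.05, where 19186 of all 87948 peaks did. DESeq2 and limma voom called 0, and the median log2 fold change of the 21 was 0.05. The main Tbx3 peak, at the lower-coordinate end of the gene (chromosome 5, 119669599 to 119671844), had 84.6 and 78.2 CPM in the wild type and 88.2 and 76.4 CPM in the mutant. The mutant libraries lay on either side of the wild-type libraries. Its log2 fold change was 0.02 ± 0.13 SE (adjusted p 0.965 by edgeR), and its sign changed with the scaling. The other 4 Tbx3 peaks lay between -0.13 and 0.05.

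The strongest Tbx2 peak, 621 bp past its higher-coordinate end (chromosome 11, 85842569 to 85845533), had 42.4 and 37.6 CPM in the wild type and 41.0 and 42.0 CPM in the mutant (log2 fold change 0.05 ± 0.15 SE, adjusted p 0.879 by edgeR). Among the 16 Tbx2 peaks the log2 fold changes ran from -0.59 to 0.67, and 12 of the 16 lay above 0, as did 49.9% of all peaks. The highest, named after its values were seen, was the peak at 85829370 to 85830287, 2328 bp from Tbx2, with 4.13 and 3.82 CPM in the wild type and 6.995 and 5.62 CPM in the mutant (adjusted p by edgeR = 0.169). The lowest was the peak at 85804021 to 85804592, 28023 bp from Tbx2 and inside the neighbouring gene Bcas3, with 5.88 and 8.72 against 5.05 and 4.67 CPM (adjusted p by edgeR = 0.217). A second peak inside Bcas3, at 85814355 to 85814622, had 2.83 and 3.92 against 2.37 and 2.21 CPM (log2 fold change -0.56, adjusted p = 0.374). The peak at 85845635 to 85847352, next to the strongest one, had 15.7 and 18.8 against 11.3 and 15.5 CPM (log2 fold change -0.36, adjusted p = 0.322).

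Shox2, the sinus node factor, had 4 weak peaks and no call (1 with an unadjusted p under 0.05 by edgeR, where 19186 of all 87948 peaks had one, and 0 called by DESeq2 or limma voom). The peak 603 bp from its start lies inside the overlapping gene Rsrc1 (chromosome 3, 66982374 to 66982909) and had 4.64 and 2.48 CPM in the wild type and 3.35 and 3.60 CPM in the mutant (log2 fold change -0.03 ± 0.35 SE, adjusted p 0.973 by edgeR). The wild-type libraries were the highest and the lowest of the 4. The strongest peak, at 66985551 to 66986292, had 8.60 and 8.15 against 10.6 and 7.70 CPM (0.13 ± 0.24 SE, adjusted p 0.806 by edgeR).

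Nr2f2 had 9 peaks and no call (0 with an unadjusted p under 0.05 by edgeR, and 0 called by DESeq2 or limma voom), with log2 fold changes from -0.16 to 0.34 and a median of -0.0011. No peak lay within 1 kb of the start used here. The strongest, within the gene (chromosome 7, 70361347 to 70362390), had 27.9 and 28.1 CPM in the wild type and 26.2 and 24.4 CPM in the mutant (log2 fold change -0.15 ± 0.16 SE, adjusted p 0.648 by edgeR). Both mutant libraries lay below both wild-type libraries, and the difference did not pass the test.

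Each gene was then read as 1 value, the sum of the counts of all its peaks, tested beside the same sums for 18104 protein-coding genes. Irx5 was the only member past the threshold, where 1.15% of genes were called higher and 0.779% lower. Its summed CPM was 109 and 101 in the wild type and 147 and 136 in the mutant, a log2 fold change of 0.39 ± 0.09 SE (adjusted p 0.046 by edgeR). Leaving out either wild-type library ended the call (0.0695 for replicate 1 and 0.311 for replicate 2), as did trended offsets (0.0535), while the fold change stayed between 0.34 and 0.45 when a library was left out.

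Irx4 had 133 and 111 CPM in the wild type and 188 and 130 CPM in the mutant (log2 fold change 0.35 ± 0.14 SE, adjusted p 0.209 by edgeR). Mutant replicate 1 alone stood high, and the value was 0.59 without mutant replicate 2 (adjusted p 0.00048, a call) and 0.07 without mutant replicate 1. The other 8 genes had log2 fold changes from -0.09 (Irx6) to 0.26 (Irx1), none past the threshold. Across the 10 genes the highest sum was in mutant replicate 1 for 8, and wild-type replicate 1 exceeded wild-type replicate 2 for all 10. The part of this order of the libraries in the results was not tested.

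**Figure D5:**
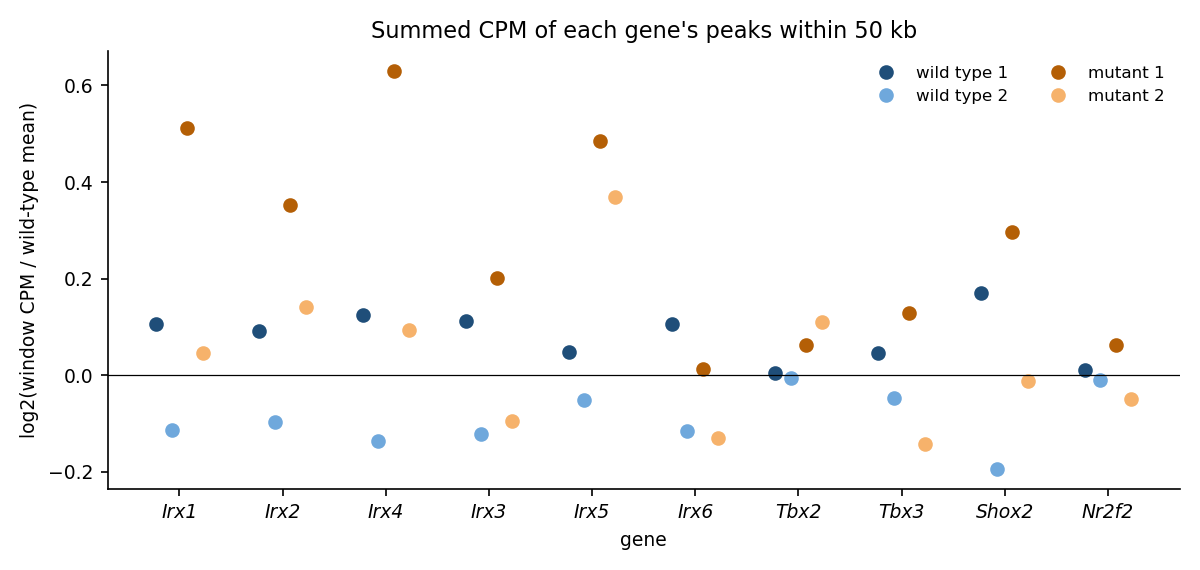
Summed CPM of all peaks within 50 kb of each gene, as log2 of the ratio to the wild-type mean, in each of the 4 libraries. At Irx5 both mutant libraries lie above both wild-type libraries with a gap wider than either pair, and at Irx4 mutant replicate 1 alone stands high.

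Set per length of peak, the order of the levels was led by Tbx3, at 24.4 CPM per kb (mean of the 4 libraries, range 22.1 to 26.7). Irx3 (14.1 CPM per kb), Irx5 (13.9) and Nr2f2 (12.1) followed, then Tbx2 (10.7), Irx2 (10.2), Irx6 (10.1), Irx4 (9.88), Shox2 (8.29) and Irx1 (6.82). The ranges of neighbours in this order overlapped, except between Tbx3 and Irx3 and between Nr2f2 (11.7 to 12.6) and Tbx2 (10.3 to 11.2). In bulk tissue, fewer cells with an open site and less opening per cell cannot be told apart.

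Values on both sides of the window's edge were as follows. The members farthest from their gene, 45948 bp from Tbx2 and 43031 bp from Nr2f2, had log2 fold changes of 0.50 and 0.34. The nearest peaks outside, 50534 and 50680 bp from Irx3, had 0.99 and -0.45 (adjusted p by edgeR = 0.0523 and 0.511). The former had 3.96 and 2.68 CPM in the wild type and 6.69 and 6.50 CPM in the mutant, so it lay just outside both the window and the threshold. Of 30 peaks added by windows of 100 kb, 1 was called, and it was higher, where 3.05% of all peaks were higher and 2.45% lower.

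Between the genes of each Iroquois cluster lie long stretches that the windows leave out, and these were counted after the values above were seen. Over all peaks, 3.05% were called higher and 2.45% lower. In the cluster of Irx3, Irx5 and Irx6, 21 further peaks lay between the windows, of which 3 were higher and 3 lower. The strongest of the 6, at 91966970 to 91968170 and 165316 bp from Irx3, had 18.4 and 17.9 CPM in the wild type and 31.7 and 29.0 CPM in the mutant (log2 fold change 0.74 ± 0.17 SE, adjusted p 0.0142 by edgeR). The 3 lower peaks lay beyond it. The main one, at 92008720 to 92009352, had 18.0 and 14.9 against 7.06 and 5.87 CPM (log2 fold change -1.35, SE 0.23, adjusted p = 0.00242). The peak at 92007977 to 92008190 had -2.79 (SE 0.56) and the peak at 91989109 to 91989680 had -1.07. The former was weak, with 2.94 and 1.44 CPM in the wild type and 0.24 and 0.38 CPM in the mutant. The remaining higher peaks, at 92127652 to 92127981 and 92491616 to 92492135, had log2 fold changes of 2.43 and 2.01. Both were weak in the wild type, with 1.02 and 0.93 CPM at the first and 1.19 and 1.29 CPM at the second. In the cluster of Irx1, Irx2 and Irx4, 11 further peaks lay between the windows, of which 1 was called, lower, at 73073618 to 73073963 (log2 fold change -1.35, adjusted p by edgeR = 0.0467).

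Other genes of chamber and conduction patterning were read from 47 listed genes, of which 46 had a peak that was not already a member. Of their 728 peaks, 28 were higher and 11 lower, or 5.36%, and the median log2 fold change was 0.08. This was near the 3.05% higher and 2.45% lower over all peaks. Among the T-box genes, 1 of 54 peaks was higher and 1 lower (3.70%), both at Tbx20, a T-box factor of working muscle. The peak at chromosome 9, 24782186 to 24782776, rose from 4.13 and 4.85 to 12.2 and 11.1 CPM (log2 fold change 1.37, adjusted p by edgeR = 0.00379), and the peak at 24748733 to 24749230, which overlaps the gene, fell from 8.43 and 15.02 to 4.197 and 3.41 CPM (-1.62, adjusted p = 0.00363; 0.104 without wild-type replicate 2). Tbx5, the activator that Tbx2 and Tbx3 oppose, had 0 called of 11 by edgeR, DESeq2 or limma voom. By edgeR, 2 of the 11 had an unadjusted p under 0.05, where 19186 of all 87948 peaks did.

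Among the cardiac transcription factors, 2 of 183 peaks were higher and 2 lower (2.19%). Peaks of Gata6 and Gata4, zinc-finger activators of heart genes, rose by 0.91 and 0.97 on the log2 scale (adjusted p by edgeR = 0.0417 and 0.0496). A second Gata6 peak fell by 1.18 (0.0123) and a Mef2c peak 22387 bp from the gene fell by 2.21 (0.00426), the latter whichever library was left out. Without wild-type replicate 1 the adjusted p was 0.34 for the Gata6 rise, 0.0551 for the Gata4 rise and 0.0881 for the Gata6 fall. Leaving out wild-type replicate 2 ended the calls of the Gata4 rise (0.41) and the Gata6 fall (0.0525). The Gata4 rise was lost without mutant replicate 1 (0.0756), and the Gata6 rise without mutant replicate 2 (0.136). DESeq2 did not call either rise (0.0784 and 0.12). The Gata4 rise was also lost with total counts (0.0566), trended offsets (0.0548) and a mean CPM of at least 2 (0.0561). Nkx2-5 and Hey2, a homeobox and a Notch-pathway gene of ventricular muscle, had 0 called of 24 and 0 of 5 by edgeR, DESeq2 or limma voom. By edgeR, 2 and 1 of these peaks had an unadjusted p under 0.05, where 19186 of all 87948 peaks did.

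Of 83 peaks at BMP and Notch genes, which act upstream of Tbx2 and Tbx3 in the atrioventricular canal, 1 was higher and 2 lower (3.61%). A Bmpr1a peak rose by 0.75 (adjusted p by edgeR = 0.0296), while peaks of Bmp2 and Jag1 fell by 1.38 (0.0315) and 1.36 (0.0469). Leaving out either wild-type library ended the calls of Bmpr1a (0.147 for replicate 1 and 0.231 for replicate 2) and Bmp2 (0.0597 and 0.261). Bmpr1a was also lost without mutant replicate 2 (0.0615) and Bmp2 without mutant replicate 1 (0.0681). The Jag1 call was lost whichever library was left out (0.0571 to 0.297). DESeq2 did not call the Bmp2 or Jag1 peak (0.0993 and 0.184), and limma voom (0.0774) and trended offsets (0.124) did not call that of Jag1.

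Of 408 peaks at conduction and chamber target genes, 24 were higher at 12 genes and 6 lower at 3 genes, or 7.35%. Over all peaks, 3.05% were higher and 2.45% lower, and whether the list differs from all peaks was not tested. A peak overlapping Scn10a, a sodium channel gene (chromosome 9, 119634169 to 119635002), rose from 2.77 and 4.44 to 13.5 and 12.2 CPM (log2 fold change 1.83 ± 0.27 SE, adjusted p 0.000909 by edgeR). Peaks of Cacna1d, a calcium channel gene of pacemaker cells, and Nppa, the atrial natriuretic peptide gene, rose by 1.46 (0.00882) and 0.94 (0.0151). The Cacna1d call was lost without wild-type replicate 2 (0.0635) and the Nppa call when either wild-type library was left out (0.123 and 0.0947). Scn10a had 3 of 18 peaks higher, Nppa had 4 of 15 and its neighbour Nppb 4 of 16, and the windows of Nppa and Nppb share peaks. A peak in the windows of several listed genes was counted at each, so the 12 genes are not separate.

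Lower calls in that list were at Kcnd3, Ryr2 and Hcn4. A peak within Kcnd3, a gene of the transient outward potassium current (chromosome 3, 105600433 to 105601067), fell from 13.6 and 13.0 to 2.86 and 4.61 CPM (log2 fold change -1.83 ± 0.27 SE, adjusted p 0.000835 by edgeR). A peak near Ryr2, the calcium release channel gene, fell by 1.02 (0.00468), where 2 of its 131 peaks were lower and 1 was higher, and a peak near Hcn4, the pacemaker channel gene, fell by 1.47 (0.0169). The Ryr2 call was lost without wild-type replicate 2 (0.0799) and the Hcn4 call when either wild-type library was left out (0.0949 and 0.0748). Kcnd2, a known target of Irx5, had 2 of 9 peaks higher, where 3.05% of all peaks were higher. Any link of these calls to Irx5 was not tested. The calls at the higher Tbx20 peak and at Mef2c, Scn10a and Kcnd3 held whichever library was left out.

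Marker genes of the cell types in heart tissue were read from the peaks within 1 kb of their starts. The summed level of 10 cardiomyocyte genes was 896 to 928 CPM in the wild type and 980 to 1091 CPM in the mutant, that of 4 ventricular genes 256 to 259 and 287 to 339 CPM, and that of 7 pacemaker and conduction genes 69.6 to 73.4 and 77.4 to 99.6 CPM. All 3 lists were thus higher in both mutant libraries, with 1 called peak among them, in the pacemaker list. The cardiomyocyte and ventricular lists share Myl2 and Myl3, so they are not separate. The Irx5 window and the called Irx4 peak were also higher in both mutant libraries, while the called Irx6 peak was lower in both. Mural genes (6 of 6 with a peak) had 79.2 to 80.4 and 91.6 to 98.0 CPM with no call. Endothelial genes (10 of 10) had 403 and 286 CPM in wild-type replicates 1 and 2 and 309 and 306 CPM in mutant replicates 1 and 2, with 1 lower call. Both mutant libraries thus lay between the wild-type libraries. The ranges overlapped between the genotypes, with no call, for venous and lymphatic endothelium (3 of 6 genes with a peak, 117 to 133 and 131 to 149 CPM), fibroblasts (7 of 7, 87.6 to 96.8 and 91.8 to 108 CPM), epicardium (3 of 5, 60.5 to 62.2 and 59.9 to 72.99 CPM), macrophages and leukocytes (1 of 6, 75.6 to 84.5 and 82.4 to 86.7 CPM) and Schwann and neuronal cells (2 of 6, 30.0 to 35.7 and 34.6 to 38.7 CPM). Ptprc, Csf1r, Adgre1, C1qa and Lyz2 of the leukocyte list, Sox10, S100b and Th among those of the neuronal list, Flt4, Pdpn and Ackr1 of the venous list and Upk3b and Msln of the epicardial list had no peak there. Of 7 atrial genes only Myl4 and Nppa had a peak there (41.3 to 52.5 and 48.9 to 56.6 CPM, 1 called higher), while Myl7, Sln, Bmp10, Stard10 and Tbx5 had none. The part of these shifts in the results at Irx4, Irx5 and Irx6 was not tested.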

How the data were processed

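ATAC-seq was measured in 2 wild-type and 2 Carm1 mutant heart libraries. The authors deposited raw counts per peak, per the file headers, totalling 17508230 and 19091969 for wild type and 16740589 and 15945420 for mutant. Of these, peaks on the Y chromosome held 2321 and 1434 for wild type and 3834 and 2260 for mutant. Whether the libraries differ in sex, and its part in the results, was not tested. The submitters' processing notes name FastQC, Bowtie2 and mm10. The sources used here do not name the peak caller, read filters, duplicate handling or any transposase shift, all of which bear on the counts. Column names matched sample titles. Counts of replicates varied beyond sampling noise (chi-square over its degrees of freedom, 4.09 for wild type and 5.76 for mutant).

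All peaks were fitted with edgeR 4.0.16 (R 4.3.3; quasi-likelihood, genotype only, TMM, filterByExpr, which removed 0 peaks; adjusted p under 0.05 over all peaks), with 2 residual degrees of freedom. The test draws the variance of each peak toward a trend over all peaks. Its p-values and standard errors therefore do not rest on that peak's replicates alone. CPM used TMM-scaled library sizes, and a standard error is the fold change divided by the root of F. Gene windows summed peak counts, and neighbouring genes share peaks. Genes came from RefSeq (GRCm38.p6); starts came from its promoter table or, where absent, either gene end. All 115 listed genes matched.

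Members and lists were chosen with earlier results of these data known. Named peaks were those called, the strongest at each start and in each window, the 5 higher and 5 lower with the smallest p not called and, per pathway list and direction, up to 4 genes, of which 1 is not reported here. Alternatives were other scalings, filters, windows, DESeq2 1.42.0, limma voom (3.58.1), a replicate block and each library left out. The procedure was also run on simulated counts with known changes. These were drawn from the variance trend over all peaks, without differences between libraries. They do not show how far the calls here hold.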

Additional observations from a re-analysis of the deposited data

How the results depend on the processing

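With 2 libraries a genotype, leaving 1 out takes the spread from the other pair, and the lone library is assumed to vary alike. The causes of lost calls were not tested. Weak peaks rest on few reads. Among the members, 4 higher and 1 lower call became 2 and 0 with windows of 5 kb, 0 lower with DESeq2 (3 higher), 7 and 5 over whole Iroquois clusters (chosen after seeing the data), and 2 to 9 higher and 0 to 1 lower with a library left out; 2 of the 5 were called in each of these 4 fits. With the replicate block there were 7 higher and 1 lower, with calls at the Irx4 start (0.00499), the Irx4 peak from 73290013 (0.0408), the Irx5 peak from 92359824 (0.0250) and the Irx4 window (0.0183); the deviations of same-numbered libraries correlated at 0.11, and with 2 pairs the numbers are not shown to pair the samples. The block gave 5230 and 4494 calls over all peaks, 52 and 29 over pathway peaks, and 710 and 511 over gene windows with 2 member genes. All-peak calls (2683 and 2156) were 1365 and 1008 with DESeq2 and 642 to 4307 and 364 to 4132 with a library left out. With total counts they were 2419 and 2570, and with trended offsets 3297 and 2175. Pathway calls were 12 and 7 with DESeq2, and 5 to 69 and 2 to 22 with a library left out. Gene-window calls (208 and 141) were 421 and 273 with DESeq2, 96 and 84 with trended offsets (0 member genes), 391 and 260 with 100 kb windows, and 63 to 828 and 41 to 678 with a library left out (0 to 2 member genes).

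Signs changed only for values near 0 or uncalled: with a library left out the ranges were -0.097 to 0.46 (strongest Irx4 peak), -0.14 to 0.24 (Irx3), -0.029 to 0.15 (Tbx2), -0.092 to 0.12 (Tbx3), -0.41 to 0.49 and -0.12 to 0.35 (Shox2), and for windows -0.12 to 0.16 (Irx3), -0.20 to 0.030 (Irx6), -0.17 to 0.089 (Tbx3), -0.059 to 0.32 (Shox2) and -0.074 to 0.021 (Nr2f2). The Tbx3 peak was -0.020 with total counts and -0.012 with trended offsets, and the Shox2 start peak 0.049 with limma voom and 0.014 with the replicate block. Windows of 100 kb gave -0.044 at Irx1, -0.0074 at Tbx2 and 0.041 at Nr2f2, and windows of 5 kb gave 0.56 at Irx6.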
